A study of Bos taurus with 6 samples.

Results

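The killer cell lectin-like receptors were followed in whole blood of 3 fat-1 transgenic cows and 3 wild type cows, with 1 array per animal. Probes were taken by name, as those whose gene name or description carries KLR or the family's full name, and 16 of the 43653 probes on the array were found. Of these, 15 belong to 9 receptor genes, while the probe named KLRAQ1 shares only the letters of the name: its accession now belongs to PPP1R21, which encodes no lectin-like receptor. The 15 receptor probes cover KLRA1, KLRB1, KLRC1, KLRD1, KLRF1, KLRG1, KLRG2, KLRJ1 and KLRK1. The family was chosen on group differences seen on these same arrays, so the values of its members are a description. Counts of members from the fit over all probes are printed beside the share of all probes and are not read as a test of the family.

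The fat-1 animals carry a nematode gene, fat-1 of Caenorhabditis elegans, for a desaturase that makes omega-3 from omega-6 fatty acids, and the wild type animals do not. The promoter of the transgene, the breed, and whether the 3 transgenic cows derive from the same founder or cell clone are not given in the sources used here. All 6 animals were female and blood came from the jugular vein. Of the fat-1 animals, replicate 1 was 3.5 years old and replicates 2 and 3 were 3 years old, as were the 3 wild type animals. Fat-1 arrays were on slide 1 and scan 1 and wild type arrays on slide 2 and scan 2, so the slide cannot be told apart from the group. The 75th percentile of intensity, to which each level below is relative, lay between 714 and 1065 on the fat-1 arrays and between 611 and 886 on the wild type arrays. Between 58.4% and 63.4% of probes were well above background on each array.

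Killer cell lectin-like receptors are membrane proteins of natural killer (NK) cells and of some T cells, most of them encoded side by side in the natural killer gene complex. Some members, such as KLRC1 (NKG2A), carry a motif that recruits phosphatases and inhibit the cell, whereas others, such as KLRK1 (NKG2D), signal through a small adaptor protein and activate it. KLRC1 reaches the surface as a heterodimer with KLRD1 (CD94) and recognises MHC class I molecules. In cattle the KLRC branch has expanded into several closely related genes, so a probe for a member of it can lie in sequence that its relatives nearly share.

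The sequences of the KLRC1 probes show how close these relatives are. In the 31 bases that 2 of the probes have in common, 4 bases differ, given in capitals in both, each probe written 5′ to 3′ as on the array.
KLRC1 A_73_P091362: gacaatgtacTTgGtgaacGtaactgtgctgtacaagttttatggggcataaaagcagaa
KLRC1 A_73_P109433: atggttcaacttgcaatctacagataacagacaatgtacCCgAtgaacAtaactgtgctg
A probe outside the name rule, described on the array as NKG2A and annotated to the same accession as A_73_P109433, overlaps A_73_P091362 over 55 bases, of which 5 differ and are again in capitals.
NKG2A A_73_P111436: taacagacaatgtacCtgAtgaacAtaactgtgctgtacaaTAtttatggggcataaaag
KLRC1 A_73_P091362: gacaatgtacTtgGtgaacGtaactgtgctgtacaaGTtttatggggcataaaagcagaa
A_73_P111436 and A_73_P109433 differ at 1 of the 36 bases they have in common. The other probes that the results turn on are shown in lower case, with nothing marked, because they have no such overlap with another member.
KLRC1 A_73_P111231: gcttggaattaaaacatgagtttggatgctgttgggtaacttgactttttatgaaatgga
KLRC1 A_73_P091367: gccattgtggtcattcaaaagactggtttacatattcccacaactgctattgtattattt
KLRK1 A_73_P038206: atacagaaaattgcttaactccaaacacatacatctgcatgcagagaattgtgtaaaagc
KLRK1 A_73_117352: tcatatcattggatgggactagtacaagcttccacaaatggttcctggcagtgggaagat
KLRB1 A_73_P054901: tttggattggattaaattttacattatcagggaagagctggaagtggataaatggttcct
KLRD1 A_73_103989: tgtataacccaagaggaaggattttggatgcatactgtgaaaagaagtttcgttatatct
The 2 KLRK1 probes lie at different places in the gene and share no run longer than 4 bases, so they are separate measurements of the same transcript.

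KLRC1, by its 2 bright probes, and KLRK1 were higher and KLRB1 and KLRG2 lower in every fat-1 cow than in every wild type cow. The 2 bright KLRC1 probes were 5.54-fold and 3.97-fold higher in the fat-1 group, the 2 KLRK1 probes 1.87-fold and 1.82-fold higher, KLRB1 2.55-fold lower and KLRG2 1.42-fold lower. These 6 probes are also the members that were well above background on all 6 arrays. KLRD1 and KLRJ1 overlapped between the groups, and KLRA1, KLRF1 and KLRG1 were too dim to compare. In whole blood, fewer cells of a type and less RNA per cell cannot be told apart.

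Of the 16 probes, 10 were kept, because at least 3 of the 6 arrays measured them well above background, and each of the 10 was above background in at least 1 animal of both groups. With limma, 0 of the 10 passed an adjusted p of 0.05, where 0.171% of the 26823 probes kept did, 0.0783% higher and 0.0932% lower in fat-1. The groups did not overlap for 6 of the 10, 4 higher and 2 lower in fat-1, against 19.6% of all probes, 6.92% higher and 12.7% lower. A change of 2-fold or more with an unadjusted p below 0.05 was found for 3 of the 10, against 4.06% of all probes, and an unadjusted p below 0.05 of any size for 6, against 12.8%. The median difference, fat-1 minus wild type, was 0.19 on the log2 scale over the 10 probes and -0.06 over all probes kept. Without KLRAQ1 the median over the 9 receptor probes was -0.05, next to that of all probes. Since the family was chosen on this contrast, nothing is read from these counts.

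**Figure D1:**
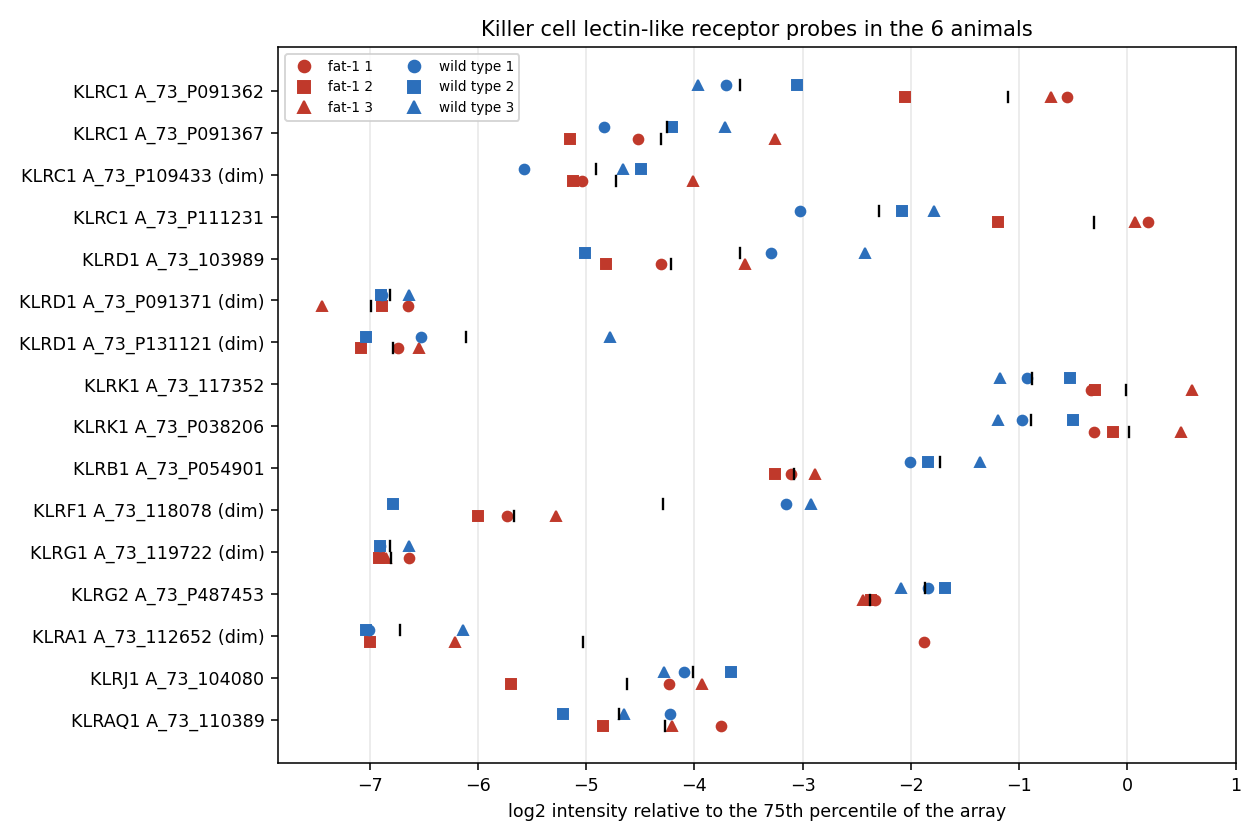
Log2 intensity of each of the 16 probes relative to the 75th percentile of its array (horizontal axis), with 1 point per animal, fat-1 in red and wild type in blue, and a black bar at the mean of each group of 3. Red and blue points do not overlap for 2 KLRC1 probes, both KLRK1 probes, KLRB1 and KLRG2; probes marked dim were left out of the fit, and the levels of different probes are not comparable.

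KLRC1, the inhibitory partner of KLRD1, had 4 probes. A_73_P091362 lies at chr5:106640760-106640819 on the build Btau_3.1. Its level was -0.56, -2.05 and -0.70 in fat-1 replicates 1, 2 and 3, and -3.71, -3.06 and -3.96 in wild type replicates 1, 2 and 3. All fat-1 animals were above all wild type animals, and fat-1 replicate 2 stood below the other 2 of its group. The group means were -1.10 ± 0.82 and -3.57 ± 0.47 (SD, n = 3 each), a difference of 2.47 ± 0.42 (SE of the fit). With the normexp background correction in place of the scanner's own, that difference was 1.42, in the same direction.

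A_73_P111231, at chr5:106640661-106640721, lies beside A_73_P091362 without overlap and shares no run of more than 7 bases with it. Its level was 0.19, -1.19 and 0.07 in the fat-1 animals and -3.02, -2.09 and -1.79 in the wild type animals. Fat-1 replicate 2 was again the lowest of its group, and all fat-1 animals were above all wild type animals. The difference was 1.99 ± 0.44, and 1.39 with normexp. Over the 6 arrays the levels of the 2 probes correlated at r = 0.93, and their deviations from the group means at r = 0.67. Part of the first value is the group difference that both share.

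The other 2 KLRC1 probes did not separate the groups. A_73_P109433, the one whose sequence overlaps A_73_P091362, is listed over chr5:106507361-106507710, an interval of 350 bases. Its level was -5.04, -5.12 and -4.01 in the fat-1 animals and -5.58, -4.49 and -4.66 in the wild type animals, and it was well above background in 1 animal of each group. A_73_P091367, at chr5:106862831-106862890, has an accession that the RefSeq table now names NKG2A, and it lies apart from the bright probes. Whether it measures another gene than they do was not tested. Its level was -4.52, -5.15 and -3.26 in the fat-1 animals and -4.84, -4.21 and -3.72 in the wild type animals. It was well above background in 1 fat-1 and 2 wild type animals. The groups overlapped throughout, with a difference of -0.05 ± 0.48 that ran from -0.58 without fat-1 replicate 3 to 0.37 without fat-1 replicate 2. The 4 probes named KLRC1 on the array therefore lie at 3 separate places of the complex, and a difference was measured at 1 place. The probes of the other 2 places were close to background, so a difference there could have been missed.

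A further probe of the same branch was found outside the name rule and was chosen after its values were seen. LOC100140174, described on the array as NKG2A, lies at chr5:106524593-106524652 between A_73_P109433 and the bright KLRC1 probes.
LOC100140174 A_73_P091356: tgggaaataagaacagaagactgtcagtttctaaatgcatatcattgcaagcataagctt
Its level was -2.39, -3.73 and -2.13 in the fat-1 animals and -5.10, -4.89 and -6.50 in the wild type animals. It was well above background in all 3 fat-1 animals and in 0 of 3 wild type animals, and was at least 4.27-fold higher in fat-1. The bound sets the fat-1 mean against the dimmest well-measured probe of each wild type array, or against the probe itself where that is brighter, and it holds for the scanner's processed intensity only. The fitted difference was 0.60 with normexp, against 2.75 ± 0.52 without. As with KLRC1, fat-1 replicate 2 was the lowest of its group, and r with A_73_P091362 over the 6 arrays was 0.97 for levels and 0.87 for deviations from the group means.

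Of the remaining relatives of KLRC1, the NKG2A probe A_73_P111436 was well above background in 1 fat-1 animal only. LOC513869, described as similar to NKG2A, was above background in no animal. NKG2C, the activating counterpart of NKG2A, had levels of -4.91, -4.74 and -7.55 in the fat-1 animals and -4.20, -7.05 and -4.03 in the wild type animals. It was well above background in 1 fat-1 and 2 wild type animals. It overlapped between the groups, with a difference of -0.64 ± 0.94 that became 0.27 without fat-1 replicate 3. Among the KLRC probes taken by name, the high fat-1 values thus came from the 2 bright probes at 1 place. LOC100140174, picked for its values and kept only through the fat-1 animals, adds no support for another place.

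KLRD1 (CD94), with which the KLRC receptors pair, did not follow KLRC1. A_73_103989, at chr5:106977133-106977192, had levels of -4.31, -4.82 and -3.53 in the fat-1 animals and -3.29, -5.01 and -2.43 in the wild type animals. Wild type replicate 2 was the lowest of the 6 animals and the other 2 wild type animals the highest, so that the groups overlapped. The difference was -0.64 ± 0.61, and the probe was well above background in 1 fat-1 and 2 wild type animals. Without wild type replicate 3 the difference was -0.06, and without wild type replicate 2 it was -1.36. The other 2 KLRD1 probes were not well above background on any array.

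**Figure D2:**
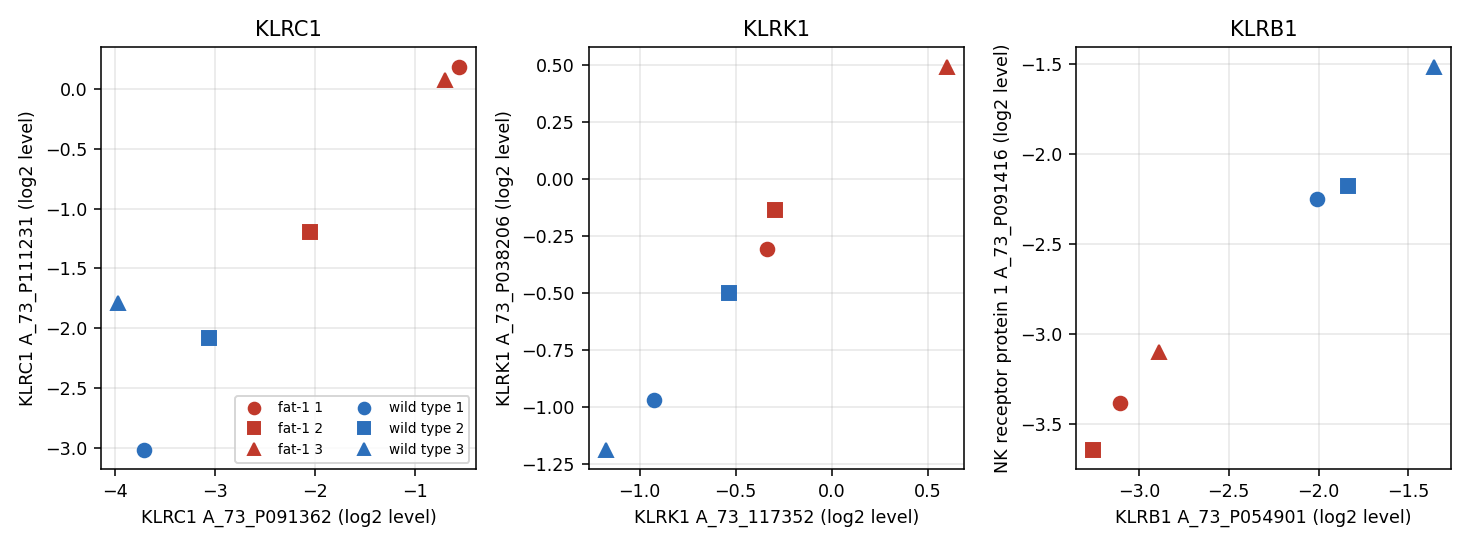
Log2 levels of 2 probes against each other, 1 point per animal, with fat-1 in red and wild type in blue: 2 probes of KLRC1, 2 of KLRK1, and the KLRB1 probe with the NK receptor protein 1 probe A_73_P091416, picked with its values known. In all 3 panels red and blue points form separate groups; for KLRC1 and KLRK1 the fat-1 animals are at the upper right, and for KLRB1 at the lower left.

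KLRK1 (NKG2D) is an activating receptor of NK cells and of cytotoxic T cells and recognises stress-induced relatives of MHC class I. A_73_P038206, at chr5:106935193-106935252, had levels of -0.31, -0.14 and 0.49 in the fat-1 animals and -0.97, -0.50 and -1.19 in the wild type animals. A_73_117352, at chr5:106933525-106933584, had levels of -0.34, -0.30 and 0.60 in the fat-1 animals and -0.92, -0.53 and -1.18 in the wild type animals. Both probes placed the 6 animals in the same order, with wild type replicate 3 lowest and fat-1 replicate 3 highest, and the gap between the groups was narrow beside the spread within them. The difference was 0.90 ± 0.29 for A_73_P038206 and 0.87 ± 0.31 for A_73_117352. Their levels correlated at r = 0.99 over the 6 arrays and their deviations from the group means at r = 0.98. Over all alternatives the differences stayed between 0.67 and 1.098 and between 0.56 and 1.04.

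KLRB1 (CD161, or NKR-P1) is a receptor of NK cells and of some T cells whose ligands belong to the CLEC2 family. A_73_P054901, at chr5:107977250-107977309, had levels of -3.10, -3.26 and -2.89 in the fat-1 animals and -2.01, -1.84 and -1.36 in the wild type animals. The fat-1 animals lay close together and all below the wild type animals. The group means were -3.08 ± 0.19 and -1.73 ± 0.34 (SD, n = 3 each), and the difference was -1.35 ± 0.24. It ran from -1.48 to -1.08 over all alternatives.

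A probe of the same receptor type, A_73_P091416, is described on the array as a variant of natural killer cell receptor protein 1 and carries accessions in common with the KLRB1 probe. It lies at chr5:108170138-108170197. It was chosen after its values were seen, so its likeness to KLRB1 is a description and adds no support.
NK receptor protein 1 A_73_P091416: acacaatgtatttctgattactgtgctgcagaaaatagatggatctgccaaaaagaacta
Its level was -3.38, -3.64 and -3.10 in the fat-1 animals and -2.25, -2.18 and -1.52 in the wild type animals. All fat-1 animals were below all wild type animals, with a difference of -1.39 ± 0.27. Its r with the KLRB1 probe over the 6 arrays was 0.996 for levels and 0.985 for deviations from the group means.

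KLRG2, a family member by name whose gene lies outside the natural killer gene complex, was also lower in fat-1. Its probe is listed over chr4:106655645-106655971, an interval of 327 bases. The level was -2.33, -2.36 and -2.44 in the fat-1 animals and -1.84, -1.69 and -2.10 in the wild type animals. The fat-1 animals were nearly identical and the highest of them lay below the lowest wild type animal, with a difference of -0.50 ± 0.21. KLRG2 ranked well below KLRB1 and KLRC1 in size: 25.4% of all probes kept had a larger difference in either direction, against 1.95% for KLRB1, 0.268% and 0.574% for the bright KLRC1 probes and 6.67% and 7.52% for the KLRK1 probes.

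The remaining members were dim. KLRJ1, a receptor gene of the complex next to the KLRC genes, had levels of -4.24, -5.70 and -3.93 in the fat-1 animals and -4.10, -3.66 and -4.28 in the wild type animals. Its groups overlapped, with a difference of -0.61 ± 0.44 that fell to -0.07 without fat-1 replicate 2. KLRF1 (NKp80), an activating receptor of NK cells, was well above background in wild type replicates 1 and 3 and in 0 of 3 fat-1 animals. Its level was -5.73, -6.00 and -5.28 in the fat-1 animals and -3.15, -6.79 and -2.92 in the wild type animals. No fold between the groups is given, because wild type replicate 2 carried a value near background and was the lowest of the 6 animals. A probe outside the name rule is described on the array as similar to NKp80 and is now named CLECL1. Chosen with its values known, it was well above background in all 6 animals. It was higher in fat-1 without overlap, with a difference of 0.85 ± 0.29 that ran from 0.61 to 1.06 over all alternatives.

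KLRA1, the bovine member of the Ly49 receptors, was above background in a lone animal. Its processed intensity was 194 in fat-1 replicate 1, against 5.83 and 14.3 in the other fat-1 animals and 5.78, 4.66 and 12.6 in the wild type animals. Fat-1 replicate 1 is also the oldest animal, at 3.5 years, and the cause of its lone value was not tested. No fold between the groups is given. KLRG1, an inhibitory receptor of cadherins, stayed near background in all 6 animals. KLRAQ1, now PPP1R21, overlapped between the groups at 0.43 ± 0.35, and its sign turned to -0.33 with normexp.

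The members of the complex lay, in rising position on chromosome 5, in the order KLRA1, KLRC1, KLRJ1, the NKG2A probe named KLRC1, KLRK1, KLRD1, KLRF1, KLRB1 and KLRG1, from 106341024 to 108346892. That interval held 57 probes, 14 of them of the family. Of the 43 others, 30 were kept, 0 passed an adjusted p of 0.05 with limma, and 6 had an unadjusted p under 0.05, against 12.8% of all probes kept. Their groups did not overlap for 3 that were higher and 2 that were lower in fat-1, against 6.92% and 12.7% of all probes. Among them were LOC100140174 and CLECL1, higher, and the NK receptor protein 1 probe, lower, all receptor probes picked with their values known. LOC100140174 was kept only through the fat-1 animals, so nothing is read from these counts. The median difference of the 30 was 0.17. Between the KLRC1 and KLRK1 probes with high fat-1 values lie KLRJ1 and the NKG2A probe named KLRC1, and for both the groups overlapped. KLRB1, toward the far end, was low.

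**Figure D3:**
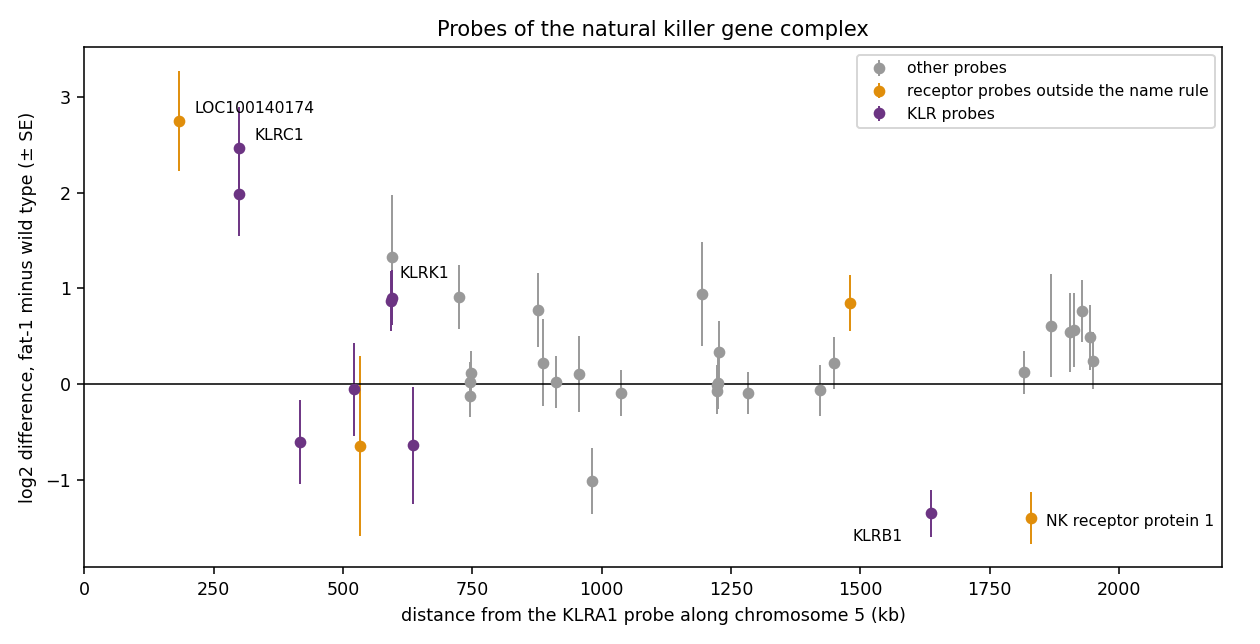
Difference between the groups (log2, fat-1 minus wild type, with the SE of the fit) for each probe kept in the natural killer gene complex, by distance from the KLRA1 probe in kb. KLR probes are purple, receptor probes outside the name rule orange and other probes grey; The 2 bright KLRC1 probes and LOC100140174 lie near 2 and above, the KLRC1 probe A_73_P091367 near 0, KLRB1 and the NK receptor protein 1 probe below -1, and most grey probes within 1 of 0.

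Genes whose level followed a receptor most closely over the 6 arrays were listed for each receptor gene, from its brightest probe. For KLRB1 they were MYLIP, a ubiquitin ligase, at r = 0.998, IL10, an anti-inflammatory cytokine, at 0.991 and TNFSF9, the ligand of 4-1BB, at 0.984. IL10 differed by -1.44 ± 0.27 between the groups, close in size to KLRB1. For KLRC1 they were PMPCB at 0.986, MAP2 at 0.979 and MPZL3 at 0.972, and for KLRK1 they were SH3GLB1 at 0.984, NUDT8 at 0.982 and CCL5 at 0.973. CCL5, a chemokine of cytotoxic lymphocytes, differed by 0.92 ± 0.35, close in size to KLRK1. For KLRD1 the list was YPEL5, XPA and FANCM at 0.995 to 0.982, for KLRJ1 MDH2, GTSE1 and WARS1 at 0.989 to 0.986, and for KLRG2 STX5, TAGLN3 and PRSS57, all at 0.997. With 6 arrays r is imprecise, and further genes reached such values. Among kept probes with a gene symbol, r was above 0.95 for 14 with KLRC1, 22 with KLRK1, 38 with KLRB1 and 398 with KLRG2. These values are a description, and points of the same group share its slide.

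Genes that work with the receptors were taken from 6 lists, and 0 members of any passed an adjusted p of 0.05 with limma over all probes. An unadjusted p under 0.05, counted for each list, was reached by 12.8% of all probes kept, in either direction. Among adaptors and proximal signalling genes 21 of 24 were measured, with a median difference of -0.08, which was 0.12 with quantile scaling, and 1 had an unadjusted p under 0.05. That was CD247, the zeta chain that signals for T cell receptors and some NK receptors, at -0.86 ± 0.29, followed by the kinase LCK at -0.54 ± 0.26. HCST, the adaptor of KLRK1, and TYROBP, the adaptor of NKG2C, were looked up for their role after values were seen. HCST differed by -0.38 ± 0.31 and TYROBP by -0.02 ± 0.32, and the groups overlapped for both. The sign of neither adaptor is settled: HCST turned to 0.12 with array weights, and TYROBP turned to 0.17 with quantile scaling.

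Of 25 listed ligands 11 were on the array and 7 were kept, with a median difference of -0.22 and 2 at an unadjusted p under 0.05. Both belong to the ULBP family, ligands of KLRK1: ULBP27 had a difference of -0.66 ± 0.22 and ULBP13 of -0.80 ± 0.27. ULBP27 had levels of 0.24, 0.33 and 0.29 in the fat-1 animals and 1.21, 1.01 and 0.62 in the wild type animals, without overlap. For ULBP13 the levels were -1.97, -1.77 and -1.61 in the fat-1 animals and -0.72, -0.72 and -1.51 in the wild type animals, and wild type replicate 3 stood next to the fat-1 animals. CLEC2D, a ligand of KLRB1, overlapped between the groups at 0.12 ± 0.22. A dimmer kept probe named CLEC2D on the array, now LOC617565 by RefSeq, also overlapped, at 0.94 ± 0.54.

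Other receptors of NK cells, with a few secreted factors on the same list, were kept for 24 of 37 genes, with a median difference of 0.16, and 3 were higher and 2 lower in fat-1 at an unadjusted p under 0.05. The smallest p values were those of XCL1, a chemokine that NK cells secrete, at -1.10 ± 0.24, and FCGR3A, the Fc receptor CD16, at 0.83 ± 0.21. Cytotoxic granule genes, with the cytokines listed beside them, were kept for 18 of 22, with a median of 0.22, 3 higher and 1 lower. IFNG, the cytokine of activated NK and T cells, was well above background in 3 fat-1 and 0 wild type animals and was at least 4.25-fold higher in fat-1. Its fitted difference was 0.59 with normexp, against 2.87 ± 0.54 without. TNFSF10 (TRAIL) differed by 1.12 ± 0.34, with overlap.

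Transcription factors of NK cells were kept for 19 of 20 genes, with a median of -0.05, 2 higher and 3 lower at an unadjusted p under 0.05. NFIL3, a factor of NK cell development, differed by -0.9996 ± 0.24 and ZEB2, a factor of NK cell maturation, by 1.08 ± 0.42, which was 0.10 with normexp. Neighbours of the receptors in the complex were kept for 13 of 20, with a median of 0.11, 1 higher and 1 lower. CLEC1B, a lectin-like receptor of platelets, differed by -1.01 ± 0.35 and CLEC4D, a lectin-like receptor of myeloid cells, by 0.57 ± 0.20.

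**Figure D4:**
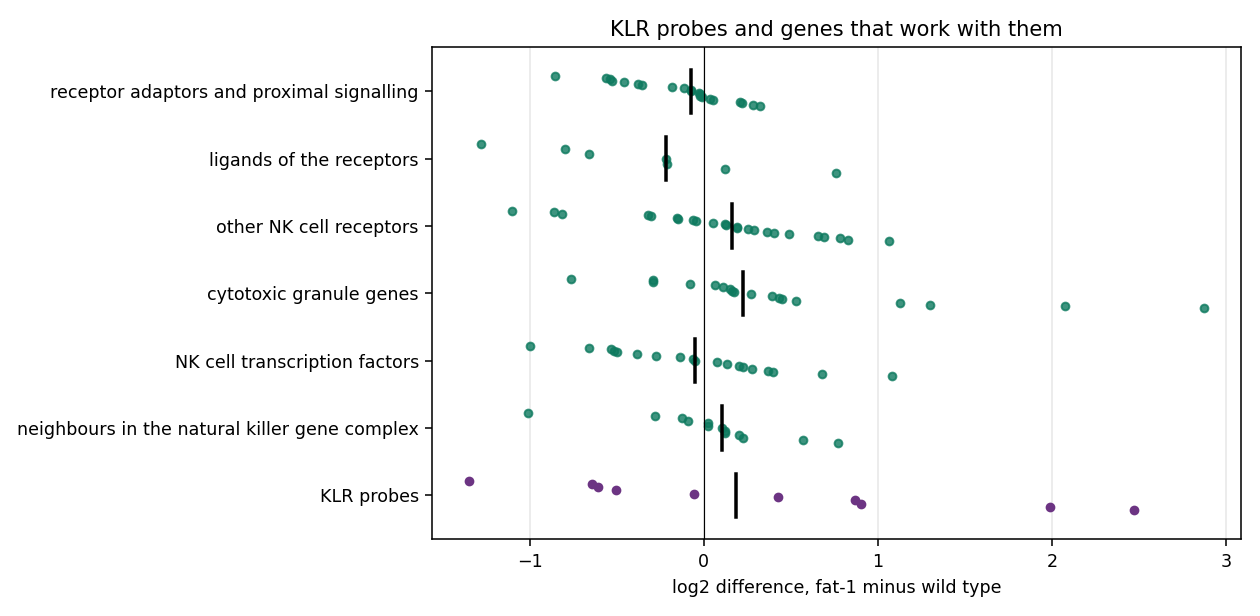
Difference between the groups (log2, fat-1 minus wild type) of each gene kept in the 6 lists, 1 point per gene, and of the 10 KLR probes kept (purple), with a black bar at the median. The list medians lie between -0.22 and 0.22, and the KLR probes range from -1.35 to 2.47.

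Markers of the blood cell types were measured on the same arrays. All 11 measured markers of NK cells were well above background, with a median difference of -0.02, and their summed level, a sum of intensities relative to the 75th percentile, was 179 to 260 in fat-1 and 229 to 366 in wild type. CD247 and TYROBP, the brightest of the 11, weigh most in that sum, and CD247 also signals for T cell receptors. FCGR3A was higher in fat-1 without overlap, at 0.83 ± 0.21. CD247 and NCR1 were lower without overlap, at -0.86 ± 0.29 and -0.81 ± 0.31, and the other NK markers overlapped. For alpha-beta T cells, 14 markers had a median of -0.10 and summed to 117 to 169 in fat-1 and 169 to 253 in wild type. For gamma-delta T cells, a large class of bovine lymphocytes, 7 of 12 markers were measured. By the brightest probe of each gene, all 7 were below 0, with a median of -1.45. They summed to 19.7 to 54.8 in fat-1 and 58.8 to 95.9 in wild type, without overlap. CD163L1 and GATA3, the brightest of the 7, weigh most in that sum. CD163L1 was lower without overlap, at -1.45 ± 0.51. GATA3, also on the list of NK cell transcription factors, overlapped between the groups at -0.53 ± 0.31. A dimmer kept probe of TRGC6, among these 7 genes, went the other way at 0.26 ± 0.42. Monocyte markers had a median of 0.27 over 12, B cell markers -0.25 over 10, neutrophil markers 0.05 over 7 and platelet markers 0.48 over 8. Red cell markers had a median of 1.08 over 8 and summed to 533 to 1042 in fat-1 and 98.6 to 1241 in wild type. Of the neutrophil markers CXCR1, CXCR2 and CAMP were not well above background on any array. The part of these cell types in the differences of the receptors was not tested.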

How the data were processed

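The scanner files hold spot intensity from 1-colour Agilent arrays, read with Agilent Feature Extraction. Its version was 10.7.1.1, per the submitters' processing notes. The processed intensity is background-subtracted and detrended, and spots without a usable difference carry a surrogate value near background, per the file headers. This narrows the spread of dim probes, and the values are not scaled between arrays. The authors' value table holds deposited log2 values with equal medians of 6.38, used as an alternative. Its normalization is not given here in any source used. RNA was extracted from whole blood and labelled with Cy3, per the labels.

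Intensity was taken to log2 minus the 75th percentile of the array, and spots of a probe were averaged. Control spots and 32 probes flagged as non-uniform were left out, and no probe was dropped for saturation. A probe was kept where at least 3 of 6 arrays measured it well above background. Differences were fitted with limma 3.58.1 (lmFit, eBayes) in R 4.3.3 over 26823 probes with Benjamini-Hochberg adjustment and a threshold of 0.05, which 46 passed. The fit was tested on simulated data. The number of arrays limits the precision. Each animal is a replicate.

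The members and lists were chosen with earlier results of these data known. Genes were named from a RefSeq table of ARS-UCD2.0 by accession for 22205 probes, by symbol for 9853 and by older symbol for 412, and 2704 kept the file's name. Another 8479 were unnamed. Positions are the files' own, on Btau_3.1, and exons and untranslated regions were not assigned. All members are named or counted. Of each list, 2 genes with the smallest unadjusted p are named, and for each receptor gene its 3 most like genes. Lists use the brightest probe of a gene.

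Alternatives were quantile scaling, normexp with an offset of 50, no filter or a filter on all 6 arrays, scaling to the median of bright probes, the authors' table, an intensity trend, array weights, a replicate block, leaving out each array and, for the lists, averaging the probes of each gene.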

Additional observations from a re-analysis of the deposited data

How the results depend on the processing

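Over the alternatives, the differences of the 10 members gave 144 values that moved by less than the spread between animals and 2 that moved by more, which were those of A_73_P091362 and KLRAQ1 with normexp. The count of all probes past an adjusted p of 0.05 with limma was 46, and it was 16 with quantile scaling, 117 with normexp, 14 without a filter, 16 with the authors' table, 125 with a trend in eBayes and 1055 with array weights. Leaving out an array gave 8 to 55. The count of probes at least 2-fold different, 1088, was 405 with normexp, 1779 without a filter, 661 with the filter on all 6 arrays, and 826 to 2368 with an array left out, the highest without wild type replicate 3.

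Among KLR probes the count past the adjusted p was 0, but 1 with the filter on all 6 arrays and 1 with the trend, each time A_73_P091362, and 4 with array weights. It was 0 in the other alternatives. Of all probes, 61 of 23723 passed with the filter on all 6 arrays, 125 of 26823 with the trend and 1055 of 26823 with array weights. The KLR median was -0.05 without KLRAQ1 (added after seeing the data), -0.37 with normexp, 0.89 over the 6 probes that pass the filter on all arrays, and -0.0378 (without fat-1 replicate 3) to 0.54 (without fat-1 replicate 2) with an array left out. The cause was not tested.

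The median of the adaptors was 0.12 with quantile scaling and 0.12 with the authors' table, and -0.22 to 0.0434 with an array left out. That of the transcription factors was -0.20 with normexp and -0.22 to 0.0244 with an array left out, and that of the other NK receptors -0.0340 (without wild type replicate 1) to 0.25. With an array left out, the median of the ligands ran from -0.41 to -0.0410 (without wild type replicate 2), that of the granule genes from 0.0807 (without fat-1 replicate 3) to 0.36 and that of the neighbours from -0.0281 (without fat-1 replicate 2) to 0.22. Array weights brought 3 ligands, 2 other NK receptors and 3 granule genes past the threshold, where 1055 of all 26823 probes kept passed. TYROBP turned to 0.17 with quantile scaling, 0.0654 with normexp, 0.17 with the authors' table and 0.21 with array weights, and ran from -0.22 to 0.30 with an array left out. HCST turned to 0.12 with array weights, and NKG2C ran from -1.62 to 0.27 with an array left out.

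The replicate numbers of the labels were also used as a block. Deviations of same-numbered animals correlated at 0.117, 0.185 and 0.006. Replicates 1 and 2 of fat-1 correlated best with the wild type animal of their own number, and replicate 3 did not. Whether the numbers pair the animals cannot be told from these values. With the replicate block 105 probes passed, with 0 KLR probes and 1 granule gene, IFNG, among them. IFNG was kept through the fat-1 animals alone, and its difference was 0.59 with normexp. Signal close to background limits KLRA1, KLRD1, KLRF1, KLRG1 and KLRJ1, the KLRC1 probes A_73_P109433 and A_73_P091367, and NKG2C.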
